A study of Mus musculus with 12 samples.

Results

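The genes described are the fibroblast growth factor (FGF) ligands, their receptors, receptor-like and receptor-binding proteins, and target genes that feed back on FGF signalling. They were picked out by gene symbol, through the Ensembl identifiers of the count tables. The symbols were those of the FGF, FGF receptor, Sprouty and Spred families together with Fgfrl1, Klb, Flrt2, Flrt3, Dusp6, Etv4 and Etv5. The symbols matched 39 of 38924 gene rows. They comprised 15 secreted ligands, 3 ligands of the endocrine type (Fgf15, Fgf21 and Fgf23) and 4 intracellular FGF homologous factors (Fgf11 to Fgf14). The others were 4 receptors, 4 receptor-like or receptor-binding proteins, 7 feedback inhibitors and 2 ETS transcription factors. No identifier matched Spry3, which was not analysed here.

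Secreted FGFs bind receptor tyrosine kinases with heparan sulfate as a cofactor, and the activated receptors signal through RAS and the kinase ERK. ERK signalling switches on the ETS factors Etv4 and Etv5, and also Sprouty, Spred and Dusp6 proteins, which dampen the same cascade. In the gastrulating mouse embryo FGF signalling is required for cells to leave the primitive streak and for mesoderm to be specified, and Fgf8 and Fgfr1 are the best known genes of this step.

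Cells were sorted from mouse embryos at E7.25, shortly after gastrulation has begun, and their RNA was sequenced as 12 libraries. All came from 1 line, Foxa2Cre:Rosa26-YFP, in which Cre made under control of Foxa2 permanently switches on a yellow fluorescent protein (YFP) reporter, so YFP marks cells that have expressed Foxa2 at some time. The 4 sorted types, with 3 libraries each, were YFP-positive cardiac mesoderm (labelled ventricular), YFP-negative cardiac mesoderm (labelled non-ventricular), endoderm sorted by EPCAM, and hematopoietic mesoderm sorted by KDR. The series compares these types in a study of Notch signalling and cardiac commitment, and no library here carried a treatment. The labels do not say whether replicates came from separate embryos or litters, so p-values measure the spread between these libraries, which may be technical.

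Gene counts totalled 4472800 to 7888631 per library, so 3 counts corresponded to 0.380 to 0.671 CPM, the unit that scales each count by the total gene counts of its library. Levels are plain CPM, and groups of 3 values are in the order of replicates 1, 2 and 3. The labelled types were checked against marker lists. The 16 endoderm markers summed to 3268 to 6873 CPM in endoderm and 67.7 to 219 CPM elsewhere. The 12 cardiac mesoderm markers summed to 1029 to 1372 CPM in the cardiac libraries and 129 to 695 CPM elsewhere. The 13 hematopoietic markers summed to 2287 to 3222 CPM in hematopoietic mesoderm and 53.2 to 1054 CPM elsewhere, although the embryonic globins Hba-x and Hbb-y were at 0 in all libraries and Kdr was as high as 606 CPM in a cardiac library. The endoderm libraries also held RNA of all 12 epiblast and primitive streak markers, with a summed level of 2062 to 2225 CPM against 690 to 1619 CPM in the other types. Replicate 3 of hematopoietic mesoderm stood apart from replicates 1 and 2. It held 331 CPM of Mixl1 against 47.2 and 27.5 CPM, 241 CPM of Eomes against 45.8 and 27.8 CPM, and 0.192 CPM of Gata1 against 68.9 and 45.9 CPM. Tests and summaries that involve hematopoietic mesoderm are therefore also given without that library.

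The default edgeR expression filter kept 26 of the 39 genes. Pairs of types were compared with edgeR's quasi-likelihood test across 14170 genes, two-sided, and a difference was counted at a Benjamini-Hochberg adjusted p under 0.05. Of 156 combinations of a gene and a pair of types, 18 passed, and these came from 10 genes: Fgf3, Fgf10, Fgf13, Fgf15, Fgfr1, Fgfrl1, Flrt3, Spred1, Spry1 and Etv5. Endoderm and hematopoietic mesoderm differed in 8 of the 26, of which 4 were higher in each type. Of all genes tested 5.65% passed in this pair, 3.23% with more in endoderm and 2.42% with more in hematopoietic mesoderm. With library totals in place of TMM scaling, 8 passed there too, but 6 were higher in endoderm and 2 in hematopoietic mesoderm. In that setting 4.65% of all 14170 genes passed, and these also tilted to endoderm, with 467 higher there and 192 higher in hematopoietic mesoderm. YFP-positive cardiac mesoderm exceeded endoderm in 3, where 1.54% of all genes passed and 0.953% in that direction. It exceeded hematopoietic mesoderm in 4, where 1.79% passed and 1.15% in that direction. YFP-negative cardiac mesoderm exceeded endoderm in 2 (1.31% of all genes, 0.706% in that direction) and hematopoietic mesoderm in 1 (0.593% and 0.402%). In the edgeR fit with TMM scaling and the default filter, none of the 26 passed in the opposite direction in these 4 pairs. Of all genes, 0.586%, 0.635%, 0.6% and 0.191% did. Some other settings, given in the last section, did call genes in that direction. Since these are sorted bulk populations, fewer expressing cells and less RNA per cell cannot be told apart.

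**Figure D1:**
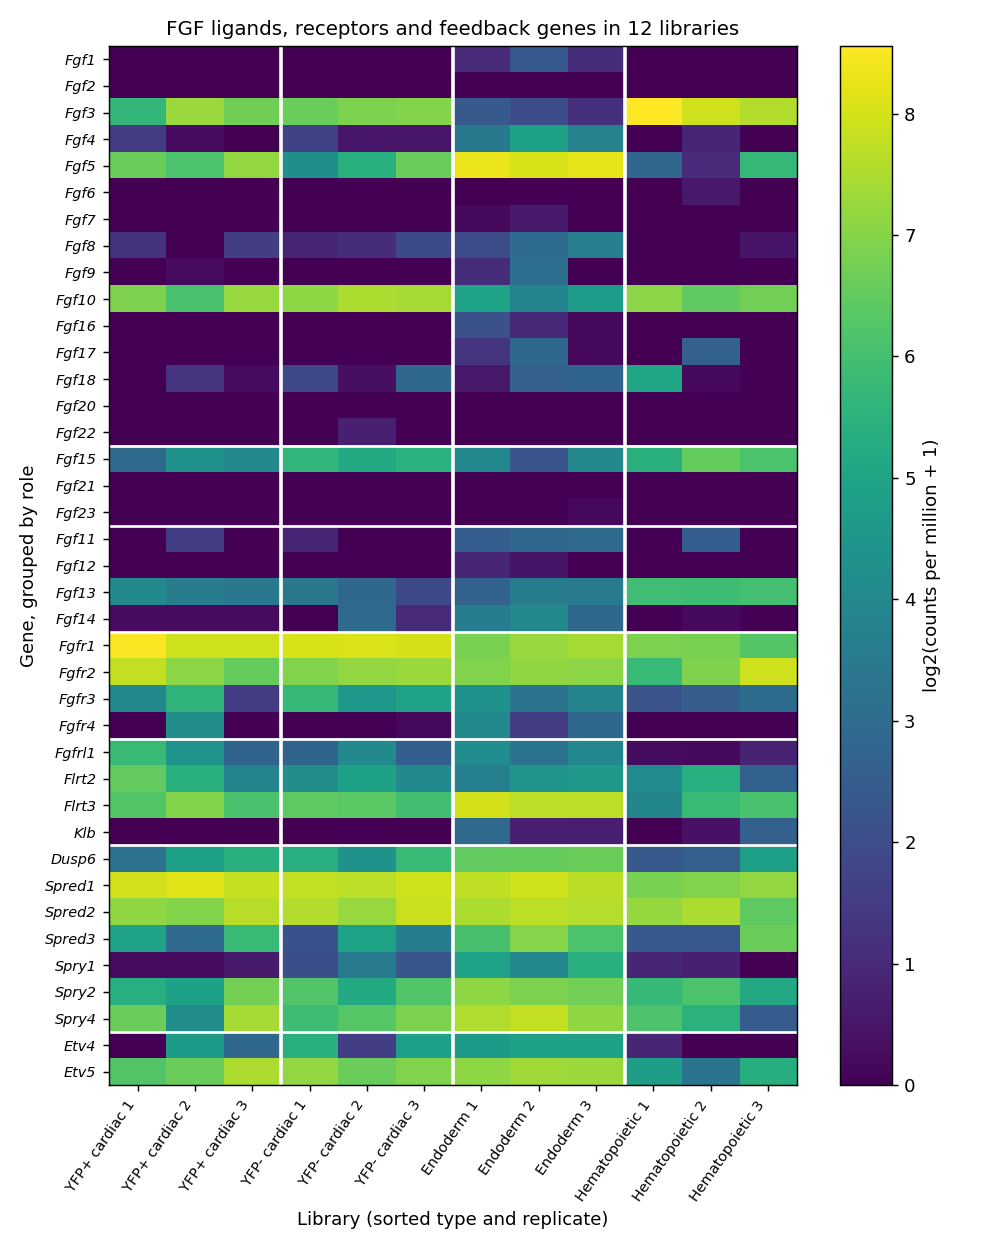
Level of each FGF gene (rows, grouped by role) in each of the 12 libraries (columns, grouped by sorted type), as log2(CPM + 1), with bright colours for high levels. Among the ligands, Fgf3 is dark in the endoderm libraries, at 1.27 to 4.35 CPM, where Fgf5 is bright, at 263 to 313 CPM.

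The ligand genes Fgf3, Fgf10, Fgf4 and Fgf5 are represented by the 250 bases before their RefSeq transcription start (build GRCm38.p6, plus strand, 5′ to 3′). They were chosen because Fgf3 and Fgf10 were low in endoderm where Fgf4 and Fgf5 were at their highest means. Differences of Fgf3 and Fgf10 passed in the fit of all 12 libraries, and those of Fgf4 and Fgf5 did not. The annotated genes Fgf3, Fgf10 and Fgf4 start before these windows, at 144838083, 118669791 and 144847367. The windows lie at chr7:144838362-144838611 for Fgf3, chr13:118714449-118714698 for Fgf10, chr7:144861136-144861385 for Fgf4 and chr5:98253934-98254183 for Fgf5. Capitals mark matches on either strand to CCGGAA or CAGGAA, core sequences bound by ETS factors. Fgf3 holds CAGGAA once, read as TTCCTG on the strand shown, and Fgf5 holds CCGGAA once, read as TTCCGG. The Fgf10 and Fgf4 windows hold no match to either, and none of the 4 holds CTTTGAT, a core sequence of TCF/LEF factors.
Fgf3: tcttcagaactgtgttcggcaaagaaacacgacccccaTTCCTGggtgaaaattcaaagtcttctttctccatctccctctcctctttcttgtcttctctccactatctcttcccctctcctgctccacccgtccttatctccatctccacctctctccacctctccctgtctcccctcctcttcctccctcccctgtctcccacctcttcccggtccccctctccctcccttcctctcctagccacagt
Fgf10: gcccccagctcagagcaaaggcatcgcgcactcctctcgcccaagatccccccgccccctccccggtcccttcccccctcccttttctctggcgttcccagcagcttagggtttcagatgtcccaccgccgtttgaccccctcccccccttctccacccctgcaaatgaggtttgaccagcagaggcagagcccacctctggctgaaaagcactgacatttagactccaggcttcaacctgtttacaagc
Fgf4: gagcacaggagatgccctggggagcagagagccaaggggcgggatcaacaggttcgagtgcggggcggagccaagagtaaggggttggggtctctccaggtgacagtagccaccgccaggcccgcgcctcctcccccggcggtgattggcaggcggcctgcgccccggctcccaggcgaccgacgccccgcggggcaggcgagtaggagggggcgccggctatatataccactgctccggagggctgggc
Fgf5: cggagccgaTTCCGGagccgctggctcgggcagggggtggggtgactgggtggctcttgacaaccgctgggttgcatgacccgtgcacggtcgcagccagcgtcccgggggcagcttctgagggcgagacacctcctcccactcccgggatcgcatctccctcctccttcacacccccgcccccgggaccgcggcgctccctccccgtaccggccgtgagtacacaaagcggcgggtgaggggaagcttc

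Over all genes described here, 30 symbols with 38 promoter windows of 300 bases were in the RefSeq table. CCGGAA occurred in 15.8% of these windows and in 14.9% of all 32851 windows of the table. CAGGAA occurred in 31.6% and 30.6%, and CTTTGAT in 2.63% and 3.73%. No motif is contained in another. The median GC content was 61.67% against 52.67% over all windows, and the median ratio of observed to expected CpG was 0.727 against 0.384. These are descriptions of sequence and not evidence of binding.

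Fgf3, a secreted ligand active in mesoderm and inner ear development, was present in the 3 mesoderm types and nearly absent from endoderm. It measured 49.8, 153 and 103 CPM in YFP-positive cardiac mesoderm, 98.5, 116 and 124 CPM in YFP-negative cardiac mesoderm, 4.35, 3.03 and 1.27 CPM in endoderm, and 376, 243 and 190 CPM in hematopoietic mesoderm. Every mesoderm library lay above every endoderm library, and the hematopoietic libraries lay above all cardiac ones. The difference from endoderm was 5.28 ± 0.54 on the log2 scale (SE) for YFP-positive cardiac mesoderm (edgeR adjusted p = 0.000237) and 5.35 ± 0.54 for YFP-negative cardiac mesoderm (adjusted p = 0.000209). Hematopoietic mesoderm exceeded endoderm by 6.72 ± 0.57 (adjusted p = 4.3e-05, and 4.52e-05 without hematopoietic replicate 3). All 3 calls held when any 1 library was left out and under the 8 other alternatives tried, with adjusted p at most 0.00703. The hematopoietic and cardiac levels of Fgf3 did not differ at the threshold in edgeR. Of the alternatives only DESeq2 called Fgf3 there, against YFP-positive and against YFP-negative cardiac mesoderm (10.5% and 7.43% of all genes).

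Fgf10, a secreted ligand that marks the anterior second heart field later in development, was also lowest in endoderm. Its levels were 119, 67.9 and 149 CPM in YFP-positive cardiac mesoderm, 135, 181 and 168 CPM in YFP-negative cardiac mesoderm, 30.1, 13.5 and 24.8 CPM in endoderm, and 133, 86.9 and 105 CPM in hematopoietic mesoderm. The lowest mesoderm library, at 67.9 CPM, was above the highest endoderm library, the YFP-positive libraries overlapped those of both other mesoderm types, and the YFP-negative libraries lay just above the hematopoietic ones. Endoderm was lower by 2.43 ± 0.40 than YFP-positive cardiac mesoderm (edgeR adjusted p = 0.00796), by 2.88 ± 0.41 than YFP-negative cardiac mesoderm (adjusted p = 0.0032) and by 2.43 ± 0.40 than hematopoietic mesoderm (adjusted p = 0.00522, and 0.00816 without hematopoietic replicate 3). These calls also held without any 1 library and under the 8 other alternatives, with adjusted p up to 0.048.

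Fgf15, the mouse counterpart of human FGF19 and later a gut hormone, was highest in hematopoietic mesoderm. The values were 6.79, 19.9 and 15.2 CPM in YFP-positive cardiac mesoderm, 48.5, 35.9 and 43.0 CPM in YFP-negative cardiac mesoderm, 15.1, 3.72 and 15.2 CPM in endoderm, and 41.8, 91.0 and 68.6 CPM in hematopoietic mesoderm. The YFP-negative and hematopoietic libraries overlapped each other and lay above all libraries of the other types. Hematopoietic mesoderm exceeded endoderm by 2.73 ± 0.70 (edgeR adjusted p = 0.0407). This call held when a YFP-positive cardiac library was left out and was lost without any 1 of the other libraries, with adjusted p from 0.0351 to 0.153 over the leave-one-out fits and 0.0633 without hematopoietic replicate 3. An antisense gene, Gm26793, overlaps 24.9% of the Fgf15 exon length, and the strand setting of the counting is not given in the sources used here, so the Fgf15 counts are uncertain.

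Fgf3, Fgf4 and Fgf15 are neighbours on chromosome 7, within 62.9 kb (chr7:144838083-144900953, GRCm38). Fgf3 and Fgf15 were at their highest mean in hematopoietic mesoderm, whereas Fgf4 was at its highest mean in endoderm. Fgf4, a ligand of the epiblast and primitive streak, measured 10.04, 28.6 and 12.8 CPM in endoderm and 0 to 2.26 CPM in the other 9 libraries. The endoderm libraries therefore lay above all others, but the difference from hematopoietic mesoderm did not pass (edgeR adjusted p = 0.1, and 0.176 without hematopoietic replicate 3).

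Fgf5, a ligand of the primed epiblast, was the most abundant ligand of endoderm. It measured 313, 263 and 301 CPM there, 98.3, 69.6 and 142 CPM in YFP-positive cardiac mesoderm, 18.1, 41.8 and 95.3 CPM in YFP-negative cardiac mesoderm, and 6.04, 1.02 and 51.2 CPM in hematopoietic mesoderm. The endoderm libraries lay above all others, and replicate 3 was the highest in each of the 3 mesoderm types. Endoderm exceeded hematopoietic mesoderm by 3.70 ± 1.01, which did not pass (edgeR adjusted p = 0.0506). Without hematopoietic replicate 3 it passed (adjusted p = 0.00242). With that replicate kept it passed in 6 of 8 other settings, and over all alternatives the adjusted p ranged from 0.00242 to 0.136. Part of the list of 12 epiblast and streak markers moved with Fgf5 and Fgf4. Of the 12, the highest mean was in endoderm for 7, in YFP-negative cardiac mesoderm for 3, in YFP-positive cardiac mesoderm for 1 and in hematopoietic mesoderm for 1. The endoderm libraries all exceeded the hematopoietic ones in 9 of the 12. Nanog was at 32.6 to 53.9 CPM, Utf1 at 114 to 124 CPM and Otx2 at 368 to 390 CPM in endoderm. In hematopoietic mesoderm Nanog was at 0 to 0.224 CPM, Otx2 at 0.683 to 2.49 CPM, and Sox2 and Nodal were at 0, while T was at 209.6 to 341 CPM and the whole list at 690 to 1356 CPM. EPCAM is a surface protein of the epiblast as well as of endoderm, and the part of epiblast RNA in these levels was not tested.

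**Figure D2:**
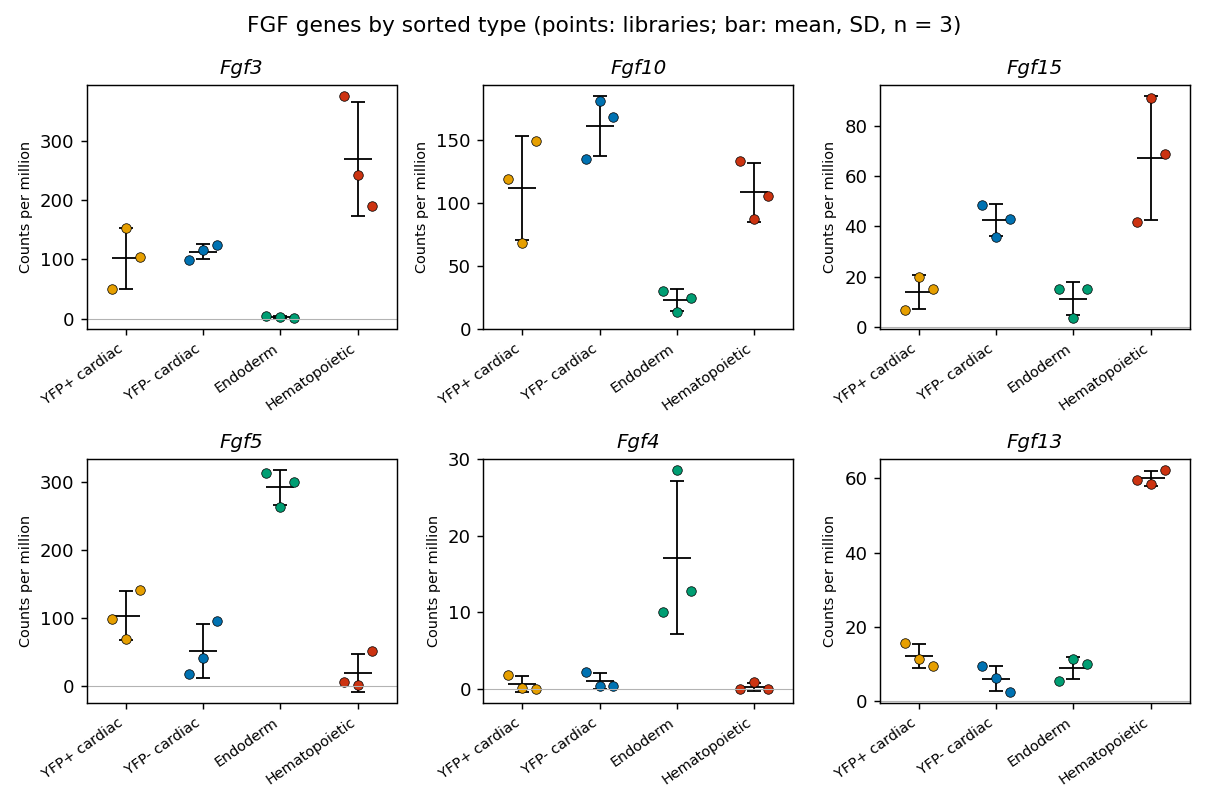
Level (CPM, linear axis) of 5 FGF ligands and of Fgf13 in the 4 sorted types, with 1 point per library and bars for the mean and SD of 3 libraries. Fgf3 and Fgf10 are lowest in endoderm, while Fgf5 and Fgf4 are highest there.

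Per kilobase of exon, which allows different genes to be compared, the leading ligand differed between types. Endoderm was dominated by Fgf5, at 116.8 ± 10.3 CPM per kb (SD, n = 3), which made up 81.04% of the summed level of the 18 secreted and endocrine-type ligands. Hematopoietic mesoderm was led by Fgf3, at 115.8 ± 41.2 CPM per kb and 64.55% of that sum, followed by Fgf10 at 23.6 ± 5.10 and Fgf15 at 21.95 ± 8.05, which did not differ beyond their spread. Over its replicates 1 and 2 alone, Fgf3 was at 132.9 CPM per kb and 68.1% of the sum, Fgf10 at 23.95 and Fgf15 at 21.7. In YFP-positive cardiac mesoderm Fgf3 (43.8 ± 22.1 CPM per kb), Fgf5 (41.3 ± 14.5) and Fgf10 (24.3 ± 8.92) were the leading means, and Fgf10 was within the spread of Fgf3. In YFP-negative cardiac mesoderm the order of means was Fgf3 (48.5 ± 5.58 CPM per kb), Fgf10 (35.1 ± 5.17), Fgf5 (20.7 ± 15.8) and Fgf15 (13.9 ± 2.07).

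The remaining secreted ligands were low. Fgf8, the ligand best known from the primitive streak, measured 2.84 to 11.5 CPM in endoderm and 0 to 2.82 CPM in the other types, and its difference between endoderm and hematopoietic mesoderm did not pass (edgeR adjusted p = 0.0989, and 0.0918 without hematopoietic replicate 3). Fgf18, a ligand known from skeletal development, reached 32.0 CPM in hematopoietic replicate 1 and stayed between 0 and 6.38 CPM in every other library. The ligands Fgf1, Fgf2, Fgf6, Fgf7, Fgf9, Fgf16, Fgf17, Fgf20, Fgf21, Fgf22 and Fgf23, the homologous factor Fgf12 and the co-receptor gene Klb did not pass the expression filter and were not tested. The highest library value among these was 7.71 CPM, for Fgf9. Fgf2, Fgf20 and Fgf21 had 0 counts in all 12 libraries, which allows up to 0.380 to 0.671 CPM per library (counting error only), and Fgf6 and Fgf23 had 3 counts or fewer in every library.

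The FGF homologous factors are not secreted and act on voltage-gated sodium channels and microtubules. Fgf13 was highest in hematopoietic mesoderm, with 59.5, 58.4 and 62.3 CPM. It measured 15.8, 11.4 and 9.66 CPM in YFP-positive cardiac mesoderm, 9.55, 6.19 and 2.67 CPM in YFP-negative cardiac mesoderm, and 5.52, 11.3 and 10.1 CPM in endoderm. The hematopoietic libraries lay close together and above all others. Hematopoietic mesoderm exceeded endoderm by 2.91 ± 0.73 (edgeR adjusted p = 0.0386), whereas the difference from YFP-negative cardiac mesoderm, 3.41 ± 0.75, did not pass (adjusted p = 0.0607, and 0.0624 without hematopoietic replicate 3). The endoderm call held when a YFP-positive cardiac library was left out and was lost without any 1 of the other libraries (adjusted p 0.04 to 0.162 over these fits, 0.0628 without hematopoietic replicate 3). Fgf14 measured 11.4, 16.1 and 6.46 CPM in endoderm and 0 to 6.75 CPM elsewhere, and Fgf11 4.85 to 6.72 CPM in endoderm and 0 to 4.95 CPM elsewhere.

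Fgfr1, the receptor required in the mesoderm at gastrulation, was higher in cardiac mesoderm than in the other types. It measured 364, 243 and 244 CPM in YFP-positive cardiac mesoderm, 259, 270 and 257 CPM in YFP-negative cardiac mesoderm, 113, 150 and 167 CPM in endoderm, and 116, 112 and 76.6 CPM in hematopoietic mesoderm. All 6 cardiac libraries lay above the other 6, and the endoderm and hematopoietic libraries overlapped. YFP-positive cardiac mesoderm exceeded hematopoietic mesoderm by 1.45 ± 0.24 (edgeR adjusted p = 0.0113) and endoderm by 1.12 ± 0.23 (adjusted p = 0.0314). YFP-negative cardiac mesoderm exceeded hematopoietic mesoderm by 1.26 ± 0.24 (adjusted p = 0.034), while its difference from endoderm, 0.93 ± 0.23, did not pass (adjusted p = 0.0808).

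The first of these Fgfr1 calls held without any 1 library, with adjusted p from 0.015 to 0.0358, but not in a fit of the 2 types alone (0.192) or with limma voom quality weights (0.153). The call of YFP-positive cardiac mesoderm over endoderm was lost without YFP-positive replicate 1 (adjusted p = 0.136), without any 1 YFP-negative library (0.0549 to 0.0692) or without any 1 endoderm library (0.104 to 0.204). The call of YFP-negative cardiac over hematopoietic mesoderm was lost without any 1 YFP-negative library (0.0876 to 0.129) or any 1 endoderm library (0.057 to 0.068). Without hematopoietic replicate 3, the adjusted p values of Fgfr1 against hematopoietic mesoderm were 0.015 for YFP-positive and 0.0424 for YFP-negative cardiac mesoderm.

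Fgfr2, which is best known from epithelia, did not pass in any pair of types. Its levels were 218, 133 and 91.6 CPM in YFP-positive cardiac mesoderm, 123, 142 and 153 CPM in YFP-negative cardiac mesoderm, 122, 140 and 133 CPM in endoderm, and 55.2, 119 and 242 CPM in hematopoietic mesoderm, where replicate 3 was highest. Fgfr3 was lower and scattered, with 15.2, 46.4 and 1.79 CPM in YFP-positive cardiac mesoderm, 51.4, 22.6 and 29.7 CPM in YFP-negative cardiac mesoderm, 19.9, 8.81 and 13.1 CPM in endoderm, and 3.58, 4.78 and 7.09 CPM in hematopoietic mesoderm. Fgfr4 exceeded 3 counts in few libraries, with 17.9 CPM in YFP-positive replicate 2, 1.93 to 16.1 CPM in endoderm, and 0 to 0.148 CPM in all other libraries. Per kilobase, Fgfr1 led in both cardiac types, at 28.7 ± 7.06 and 26.5 ± 0.73 CPM per kb against 14.3 ± 6.26 and 13.5 ± 1.48 for Fgfr2. In endoderm (14.5 ± 2.79 and 12.8 ± 0.89) and hematopoietic mesoderm (10.3 ± 2.19 and 13.4 ± 9.19) the levels of Fgfr1 and Fgfr2 lay within their spread. Over hematopoietic replicates 1 and 2 alone the means were 11.5 and 8.44 CPM per kb.

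**Figure D3:**
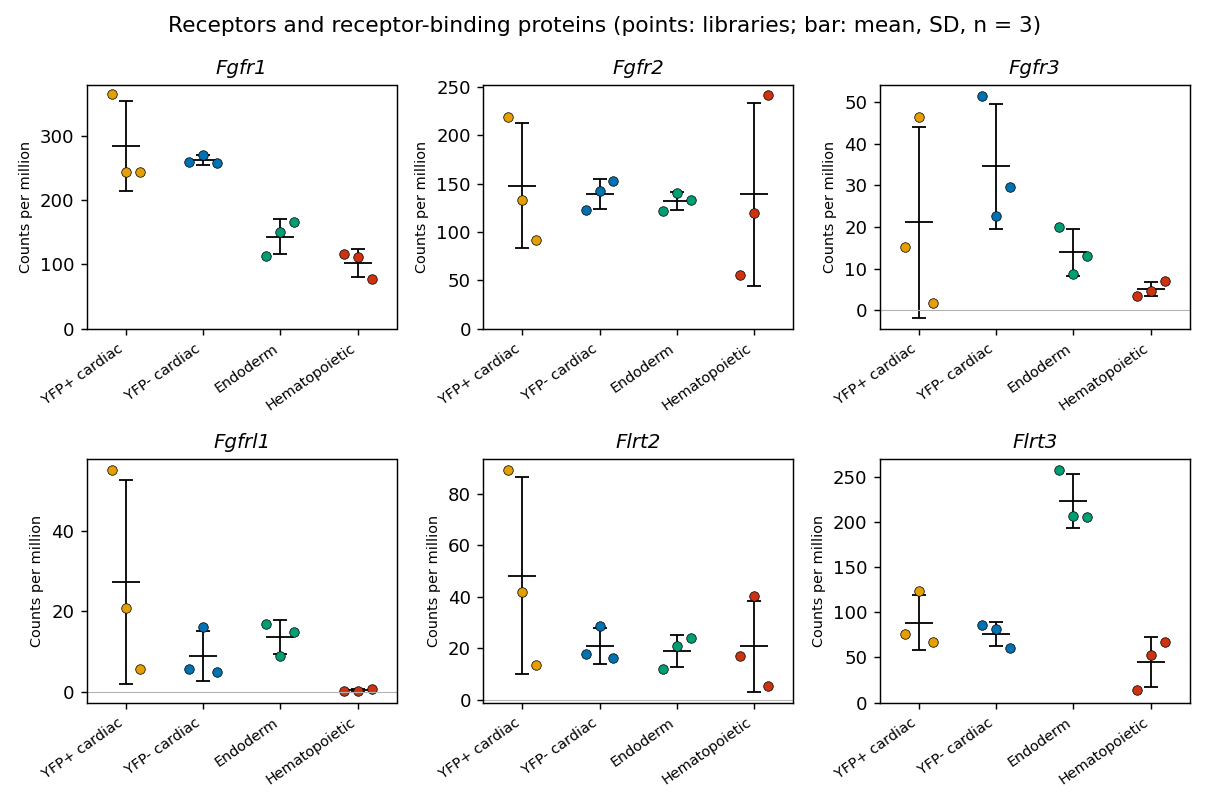
Level (CPM, linear axis) of 3 FGF receptors and 3 genes of receptor-like or receptor-binding proteins in the 4 sorted types. There is 1 point per library, and bars give the mean and SD of 3 libraries. Fgfr1 lies at 243 to 364 CPM in the 6 cardiac libraries and at 76.6 to 167 CPM in the others.

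Fgfrl1 encodes a receptor-like protein that binds FGFs and lacks the kinase domain. It measured 55.2, 20.8 and 5.72 CPM in YFP-positive cardiac mesoderm, 5.73, 16.03 and 4.90 CPM in YFP-negative cardiac mesoderm, 16.9, 8.81 and 14.8 CPM in endoderm, and 0.224, 0.171 and 0.766 CPM in hematopoietic mesoderm. The hematopoietic libraries held 6 counts in all, and the ratio of summed levels was 67.9 for YFP-positive cardiac mesoderm (exact 95% counting interval 30.9 to 186) and 34.6 for endoderm (15.7 to 95.04). YFP-positive cardiac mesoderm (edgeR adjusted p = 0.0395) and endoderm (adjusted p = 0.0386) passed against hematopoietic mesoderm. Over the leave-one-out fits the former call held only without YFP-positive replicate 3 or hematopoietic replicate 3, and the latter only without hematopoietic replicate 3 or a YFP-positive library. The adjusted p ranged from 0.0318 to 0.0933 and from 0.0336 to 0.121. The hematopoietic libraries lay below all others.

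Flrt3, a transmembrane protein that interacts with FGF receptors and is made in the anterior visceral endoderm, was highest in endoderm, at 258, 207 and 206 CPM. It measured 75.9, 123 and 66.9 CPM in YFP-positive cardiac mesoderm, 85.8, 81.4 and 61.0 CPM in YFP-negative cardiac mesoderm, and 14.3, 53.3 and 67.4 CPM in hematopoietic mesoderm. The endoderm libraries lay above all others, and the mesoderm types overlapped. Endoderm exceeded hematopoietic mesoderm by 2.14 ± 0.47 (edgeR adjusted p = 0.025, and 0.0132 without hematopoietic replicate 3). The call was lost when an endoderm library was left out (adjusted p 0.078 to 0.0973) and held without each of the others. Its relative Flrt2 spanned 5.36 to 89.3 CPM and overlapped between all types.

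Among the feedback inhibitors, Spry1 was the most uneven. It measured 29.3, 15.1 and 42.3 CPM in endoderm, 3.13, 10.4 and 3.86 CPM in YFP-negative cardiac mesoderm, 0.2, 0.178 and 0.537 CPM in YFP-positive cardiac mesoderm, and 0.894, 0.683 and 0 CPM in hematopoietic mesoderm. The order endoderm, YFP-negative cardiac mesoderm, then the other types held for every library. Endoderm exceeded hematopoietic mesoderm (edgeR adjusted p = 0.0384), with 619 against 8 counts and a ratio of summed levels of 56.9 (exact 95% counting interval 28.7 to 132.5). That call held when a YFP-positive library was left out and was lost without any 1 of the others (adjusted p 0.04 to 0.148 over these fits, 0.0531 without hematopoietic replicate 3). Gm42922, a gene of the annotation that was not in the count table, overlaps 24.4% of the Spry1 exon length on the opposite strand, so reads from either strand could be in the Spry1 counts. Endoderm held 95.05 times the level of YFP-positive cardiac mesoderm (40.5 to 294, from 619 and 5 counts), which narrowly missed the threshold (edgeR adjusted p = 0.0508, with 6.5e-06 to 0.221 over the alternatives). This difference passed with DESeq2, library totals (0.0493), voom (0.0208), a mean of at least 5 CPM (0.0401) and those types alone (0.016). It did not with RLE scaling (0.0512), no filter (0.077) or the replicate block (0.0995). Of the leave-one-out fits, only those without a hematopoietic library called it.

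Spred1, an inhibitor of RAF activation, was lower in hematopoietic mesoderm. It measured 251, 280 and 222 CPM in YFP-positive cardiac mesoderm, 216, 205 and 242 CPM in YFP-negative cardiac mesoderm, 212, 244 and 203 CPM in endoderm, and 114, 121 and 144 CPM in hematopoietic mesoderm. The hematopoietic libraries lay below all others, which overlapped among themselves. YFP-positive cardiac mesoderm exceeded hematopoietic mesoderm by 0.95 ± 0.18 (edgeR adjusted p = 0.0249), and the difference for endoderm, 0.62 ± 0.18, did not pass (adjusted p = 0.0629). It passed without hematopoietic replicate 3 (0.0427), with library totals (0.0278) and with DESeq2 (0.0113), over a range of 0.0113 to 0.204. The YFP-positive call held in 4 of 12 leave-one-out fits (adjusted p 0.0109 to 0.0691) and was 0.0109 without hematopoietic replicate 3. It was lost without YFP-positive replicates 1 or 2, YFP-negative replicates 1 or 3, hematopoietic replicate 1 or any endoderm library.

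Dusp6, the phosphatase that inactivates ERK, was highest in endoderm at 88.9, 92.2 and 98.9 CPM. It measured 8.39, 27.9 and 41.7 CPM in YFP-positive cardiac mesoderm, 39.8, 20.2 and 55.1 CPM in YFP-negative cardiac mesoderm, and 4.25, 5.12 and 27.6 CPM in hematopoietic mesoderm. Endoderm lay above all other libraries, and the mesoderm types overlapped. The difference between endoderm and hematopoietic mesoderm, 2.72 ± 0.83, did not pass (edgeR adjusted p = 0.0689), but did without hematopoietic replicate 3 (0.0127, within 0.0045 to 0.178 over the alternatives).

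The other inhibitors did not pass in any pair of types. Spry2 measured 138, 115 and 105 CPM in endoderm, 40.2, 29.0 and 107 CPM in YFP-positive cardiac mesoderm, 75.0, 36.1 and 75.1 CPM in YFP-negative cardiac mesoderm, and 52.5, 68.5 and 34.7 CPM in hematopoietic mesoderm. Spry4 measured 185, 219 and 140 CPM in endoderm, 95.5, 17.2 and 170 CPM in YFP-positive cardiac mesoderm, 58.5, 77.8 and 117 CPM in YFP-negative cardiac mesoderm, and 70.4, 43.7 and 4.60 CPM in hematopoietic mesoderm. Both had their highest mean in endoderm, and each endoderm group overlapped a YFP-positive library. Spred2 lay between 85.5 and 231 CPM in all libraries. Spred3 ranged from 3.47 to 126 CPM and reached 97.9 CPM in hematopoietic replicate 3 against 4.25 and 4.10 CPM in replicates 1 and 2. Summed over the 7 inhibitors, the level was 850 to 1021 CPM in endoderm, 486 to 793 CPM in YFP-positive cardiac mesoderm, 531 to 736 CPM in YFP-negative cardiac mesoderm and 391 to 423 CPM in hematopoietic mesoderm. These sums are descriptions without a test.

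Etv5, an ETS factor switched on by FGF signalling, was low in hematopoietic mesoderm, at 26.8, 8.71 and 39.5 CPM. It measured 73.9, 96.3 and 180 CPM in YFP-positive cardiac mesoderm, 142, 95.9 and 122 CPM in YFP-negative cardiac mesoderm, and 138, 161 and 152 CPM in endoderm. The hematopoietic libraries lay below all others. Endoderm exceeded hematopoietic mesoderm by 2.39 ± 0.51 (edgeR adjusted p = 0.021), and YFP-positive cardiac mesoderm exceeded it by 2.16 ± 0.50 (adjusted p = 0.0499). The difference for YFP-negative cardiac mesoderm, 2.12 ± 0.50, did not pass (adjusted p = 0.0825). Without hematopoietic replicate 3 all 3 passed, with adjusted p of 0.01, 0.0191 and 0.0266. The endoderm call was lost without any endoderm library or hematopoietic replicate 1 (0.0507 to 0.0759), and the YFP-positive call held only without hematopoietic replicate 2 or 3 (0.0191 to 0.14 over the leave-one-out fits).

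Its relative Etv4 measured 24.1, 29.0 and 29.0 CPM in endoderm and 0.894, 0 and 0 CPM in hematopoietic mesoderm. In the cardiac types it was scattered, with 0, 24.3 and 6.44 CPM in YFP-positive and 42.0, 1.97 and 27.6 CPM in YFP-negative libraries. Endoderm held 107 times the level of hematopoietic mesoderm (exact 95% counting interval 41.7 to 396, from 584 and 4 counts), but the edgeR adjusted p was 0.0803 (0.15 without hematopoietic replicate 3). Etv4, Etv5 and Dusp6 thus had their lowest means in hematopoietic mesoderm. The same held for Spry2 (51.9 CPM), Spry4 (39.6 CPM), Spred1 (126 CPM) and Spred2 (137 CPM), although Spry2, Spry4 and Spred2 overlapped with cardiac libraries. By contrast, Spry1 had its lowest mean in YFP-positive cardiac mesoderm (0.305 CPM) and Spred3 in YFP-negative cardiac mesoderm (15.1 CPM). Spry1 was near the floor in YFP-positive and in hematopoietic mesoderm, with 5 and 8 counts. The hematopoietic mean of Spred3, 35.4 CPM, rested on replicate 3 (97.9 CPM, against 4.25 and 4.10 CPM in replicates 1 and 2). Of the further feedback and ERK response genes described below, Myc, Dusp9, Sh2b3 and Phlda1 were higher in hematopoietic mesoderm than in endoderm. What these levels say about FGF signalling was not tested.

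**Figure D4:**
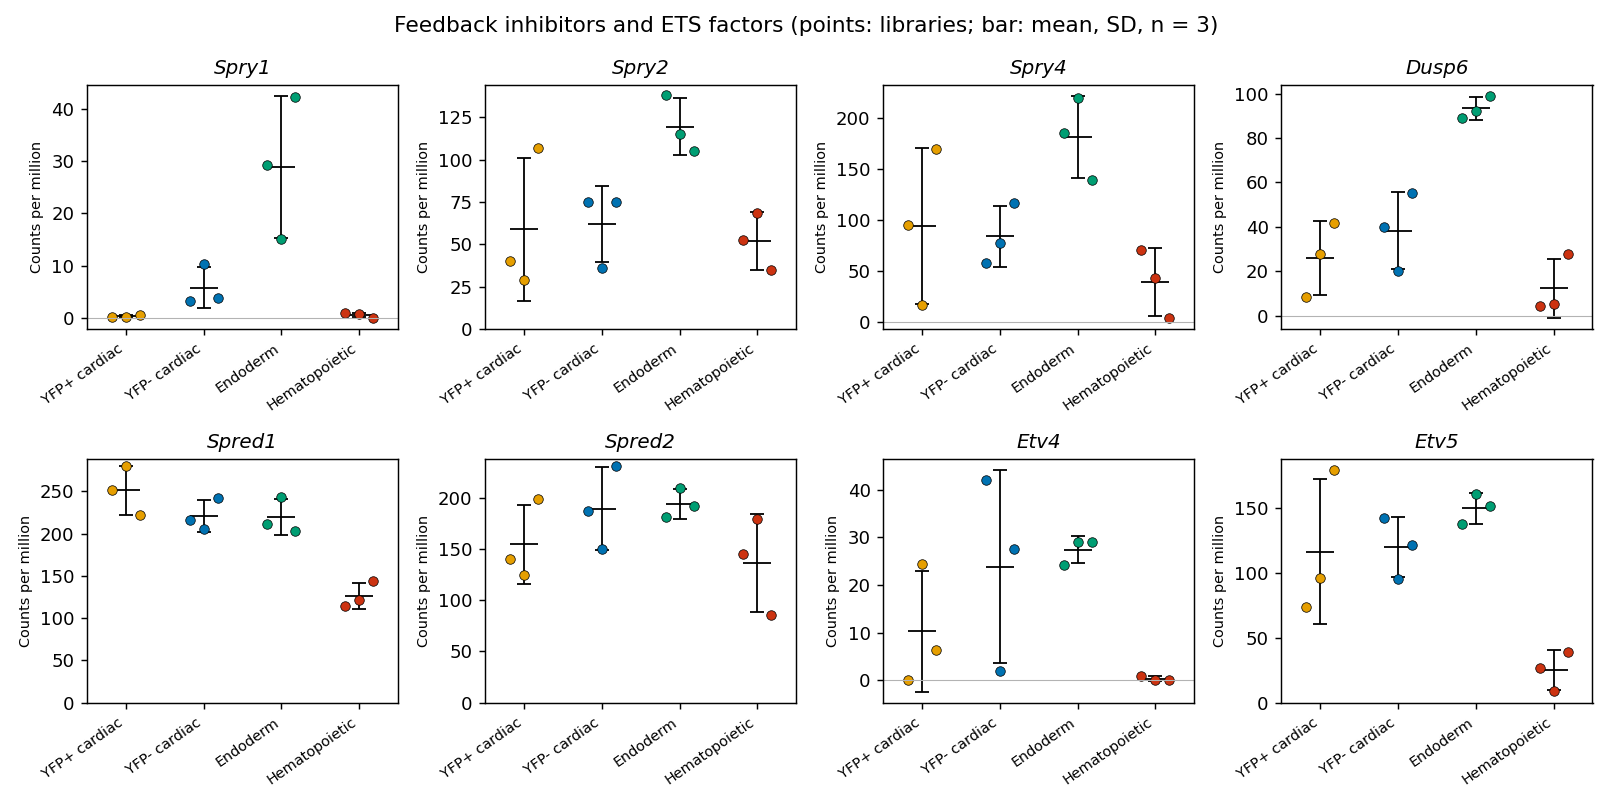
Level (CPM, linear axis) of 6 feedback inhibitors and the ETS factors in the 4 sorted types, with 1 point per library and bars for the mean and SD of 3 libraries. Dusp6 lies at 88.9 to 98.9 CPM in endoderm, and Etv5 at 8.71 to 39.5 CPM in hematopoietic mesoderm, below all other libraries.

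The YFP-positive and YFP-negative cardiac types, which separate cells by their history of Foxa2 expression, did not differ in any of the 26 genes at the threshold (edgeR; lowest adjusted p = 0.626). No gene of the 14170 tested passed in this pair (0.0%). At an unadjusted p under 0.05 there were 3 of the 26, Spry1, Fgf15 and Fgfr4, while 7.49% of all genes were under it. Spry1 was higher in all YFP-negative libraries (118 against 5 counts, ratio of summed levels 19.5, exact 95% counting interval 8.14 to 61.3, adjusted p = 0.626). Fgf15 was also higher in all of them, by 1.52 ± 0.67 (adjusted p = 0.646), within the uncertainty of its antisense overlap. Fgfr4 rested on the single YFP-positive library with 17.9 CPM. The libraries of the types did not overlap in 3 genes, Fgf15 and Spry1 (higher in YFP-negative) and Fgf13 (higher in YFP-positive), while 11.8% of all genes tested did not overlap (8.26% higher in YFP-negative and 3.51% in YFP-positive). DESeq2 called none of the 26 genes in this pair and 0.776% of all genes, with Spry1 at an adjusted p of 0.059.

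Counted without a test, the libraries of endoderm and hematopoietic mesoderm did not overlap in 20 of the 26 genes, while 33.9% of all genes did not. Of these, 16 were higher in endoderm (26.3% of all genes) and 4 in hematopoietic mesoderm (7.52%). YFP-positive cardiac mesoderm and endoderm did not overlap in 12 (29.6% of all genes), with 3 higher in cardiac mesoderm (7.54%) and 9 in endoderm (22.1%). For YFP-negative cardiac mesoderm and endoderm the count was 16 (28.6%), with 5 higher in cardiac mesoderm (10.2%) and 11 in endoderm (18.4%). Against hematopoietic mesoderm, YFP-positive cardiac mesoderm did not overlap in 9 (13.8%), 6 higher (8.37%) and 3 lower (5.46%). YFP-negative cardiac mesoderm did not overlap with it in 11 (18.3%), 9 higher (13.4%) and 2 lower (4.81%). The median log2 difference over the 26 genes was 1.48 for endoderm minus hematopoietic mesoderm, against 0.07 over all genes. It was -0.56 for YFP-positive cardiac mesoderm minus endoderm, against 0.01, and 0.98 for YFP-positive cardiac minus hematopoietic mesoderm, against 0.03. With hematopoietic replicate 3 left out, the libraries did not overlap in 22 genes for endoderm (48.9% of all genes), 13 for YFP-positive (24.3%) and 15 for YFP-negative cardiac mesoderm (31.3%). The medians over 27 genes were then 1.51 for endoderm, against 0.23 over all genes, and 0.76 for YFP-positive cardiac mesoderm, against 0.09. Genes that passed the filter only through the type where they are high had to differ. The counts of genes without overlap and the medians therefore describe the tested genes and not all 39, and are not evidence of a direction.

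**Figure D5:**
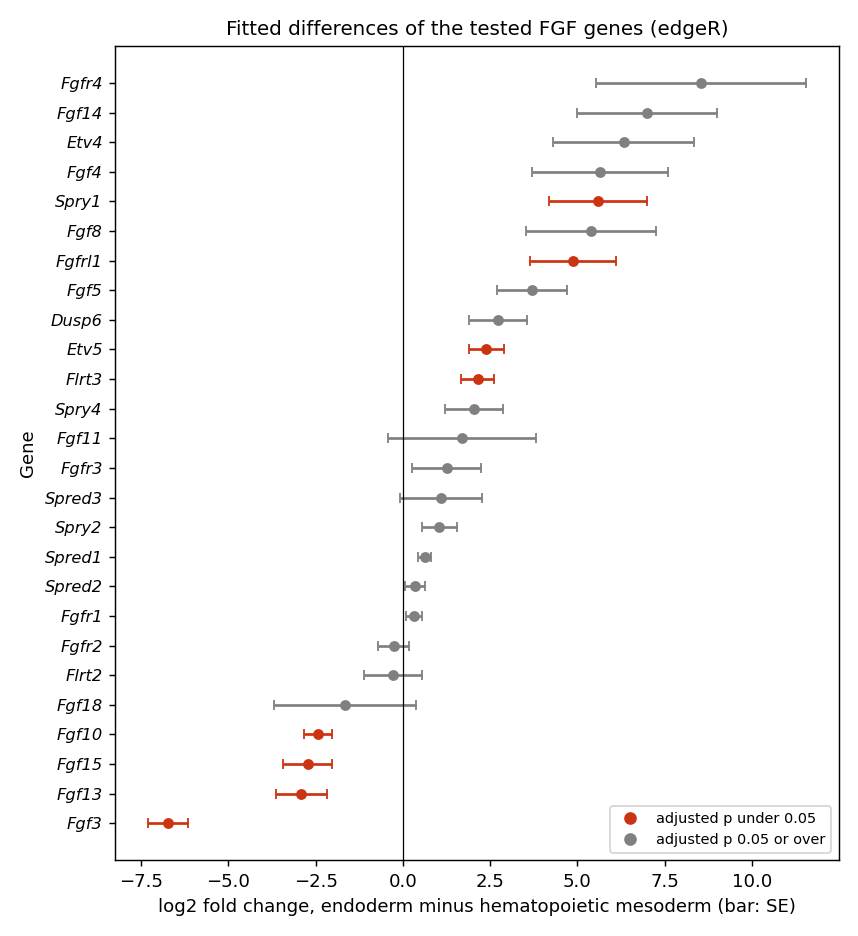
Log2 difference between endoderm and hematopoietic mesoderm (x axis, endoderm minus hematopoietic, bars for the SE) for the 26 tested FGF genes, from the edgeR fit of all 12 libraries. The 8 red points passed at an adjusted p under 0.05, with Fgf3 farthest to the hematopoietic side at -6.72, and fitted values of genes near 0 counts in a type, such as Fgfr4, depend on the prior count.

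Without hematopoietic replicate 3, 27 of the genes passed the filter. The calls against hematopoietic mesoderm were then 5 for YFP-positive cardiac mesoderm, where 2.79% of all genes passed and 1.72% in that direction, and 3 for YFP-negative cardiac mesoderm (1.43% and 1.01%). Endoderm gave 8 (4.28%), of which 6 were higher in endoderm (2.41%) and 2 in hematopoietic mesoderm (1.86%). Fgf5 passed in all 3 of these pairs. Conversely, Fgf13, Fgf15 and Spry1 no longer passed between endoderm and hematopoietic mesoderm. Other settings also ended calls. In YFP-positive cardiac against hematopoietic mesoderm, Fgfr1, Fgfrl1, Etv5 and Spred1 were lost when those types were fitted alone (adjusted p 0.192 to 0.388) and with voom quality weights (0.153 to 0.208), and Etv5 also with RLE scaling (0.0517). In YFP-negative cardiac against hematopoietic mesoderm, Fgfr1 was lost in the same fits (0.159 and 0.119). Between endoderm and hematopoietic mesoderm, Fgf13, Fgf15, Fgfrl1 and Spry1 were lost without an expression filter (0.0665 to 0.0969). With library totals in place of TMM, Fgf13 (0.0538) and Fgf15 (0.0554) were lost there, as was Fgfr1 between YFP-positive cardiac mesoderm and endoderm (0.0622). Fgf15 was lost with those types alone (0.0594) and Fgfrl1 with voom (0.058). The names of the deposited files carry a date-like string that same-numbered libraries of the 4 types share, and what it marks is not stated. With that string as a block in the fit, 9 of the 18 calls were lost. These were Fgf13 (0.0695), Fgf15 (0.0786), Fgfrl1 (0.0737) and Spry1 (0.0741) between endoderm and hematopoietic mesoderm, Etv5 (0.0589), Fgfrl1 (0.0953) and Spred1 (0.051) between YFP-positive cardiac and hematopoietic mesoderm, and Fgfr1 between YFP-positive cardiac mesoderm and endoderm (0.0646) and between YFP-negative cardiac and hematopoietic mesoderm (0.0646).

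The other genes of the pathway were taken from 4 lists with 85 genes in all, of which 79 were tested. Endoderm and hematopoietic mesoderm differed in 7, of which 6 were higher in hematopoietic mesoderm, while 5.65% of all genes passed and 2.42% were higher there. YFP-positive cardiac mesoderm exceeded endoderm in 3 (0.953% of all genes) and was lower in 1 (0.586%), and YFP-negative cardiac mesoderm exceeded endoderm in 3 (0.706%). YFP-positive cardiac and hematopoietic mesoderm differed in 2 (1.79%), with 1 in each direction. In the fit that left out hematopoietic replicate 3, 81 of the listed genes were tested. Against hematopoietic mesoderm 12 passed for endoderm, 11 for YFP-positive and 7 for YFP-negative cardiac mesoderm (4.28%, 2.79% and 1.43% of all genes). Of these, 6, 8 and 6 were lower in hematopoietic mesoderm (2.41%, 1.72% and 1.01% of all genes). The other 6, 3 and 1 were higher there, as were 285, 163 and 64 of all 15290 genes. Between the cardiac types, and between YFP-negative cardiac and hematopoietic mesoderm, edgeR called 0, with 6 and 20 genes at an unadjusted p under 0.05 (7.49% and 17.4% of all genes) and 1 and 9 called by DESeq2 (0.776% and 7.43%). In the fit of all 12 libraries, 8 genes account for the calls: Braf, Myc, Dusp4, Dusp9, Hspg2, Gpc4, Sh2b3 and Phlda1.

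In the transduction list, 1 of 25 tested genes passed, Braf, a kinase between RAS and ERK. It measured 1537 ± 144.5 CPM (SD, n = 3) in YFP-positive and 1474 ± 89.0 CPM in YFP-negative cardiac mesoderm against 491.5 ± 33.1 CPM in endoderm. These differences were 1.78 ± 0.22 (edgeR adjusted p = 0.00108) and 1.64 ± 0.22 (adjusted p = 0.00218), and held in all 12 leave-one-out fits. The hematopoietic level was 830.5 ± 336 CPM, with replicate 3 the highest, and was 0.94 ± 0.21 above endoderm (adjusted p = 0.0277). That last call was lost without any 1 endoderm library (adjusted p 0.105 to 0.123), with library totals (0.0539) and with those types alone (0.0893), and was 0.0166 without hematopoietic replicate 3.

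In the list of further feedback and ERK response genes, 22 were tested. Myc, a growth regulator induced by ERK among other signals, was at 137 ± 25.5 CPM in endoderm against 422 ± 44.5 CPM in hematopoietic mesoderm, a difference of 1.80 ± 0.22 (edgeR adjusted p = 0.00077) that held without any 1 library (0.00195 without hematopoietic replicate 3). Both cardiac types also exceeded endoderm in Myc (adjusted p = 0.039 for YFP-positive and 0.0261 for YFP-negative), but these calls were lost without any 1 endoderm or YFP-negative library, and the former also without YFP-positive replicates 1 or 3 (adjusted p up to 0.221 and 0.184). The YFP-positive call of Myc was also lost with RLE scaling (0.0526) and library totals (0.0705), and both were lost with the replicate block (0.0671 and 0.052). Dusp9, an ERK phosphatase, was at 316 ± 40.1 CPM in YFP-positive cardiac mesoderm against 107 ± 1.28 CPM in endoderm, a difference of 1.70 ± 0.26 (adjusted p = 0.00517) that held without any 1 library. Its differences of YFP-negative cardiac mesoderm (adjusted p = 0.0294) and hematopoietic mesoderm (0.0478) from endoderm were lost in 6 and 11 of 12 leave-one-out fits, the former without any YFP-negative or endoderm library and the latter without any library but hematopoietic replicate 1 (0.13 without hematopoietic replicate 3). The hematopoietic call of Dusp9 was also lost with RLE scaling (0.057), library totals (0.093), no filter (0.0517), those types alone (0.1275) or the replicate block (0.0567). Dusp4, a nuclear phosphatase of ERK, was nearly absent from YFP-positive cardiac mesoderm. Its level there was 4.20 ± 1.66 CPM against 87.3 ± 22.6 CPM in endoderm (adjusted p = 0.0165) and 110 ± 69.5 CPM in hematopoietic mesoderm (adjusted p = 0.0138). The former call was lost without YFP-positive replicates 1 or 2 or endoderm replicate 1 (0.0735 to 0.0827) or with voom (0.0809). The latter was lost with voom (0.305) or those types alone (0.115), but not without hematopoietic replicate 3 (0.0116). In the edgeR fit of all 12 libraries Dusp4 passed in no pair with YFP-negative cardiac mesoderm. Between the cardiac types the lowest adjusted p of the listed genes was 0.626. Sh2b3, an adaptor that restrains cytokine receptor signalling in blood cells, was at 17.1 ± 4.80 CPM in endoderm and 146 ± 14.8 CPM in hematopoietic mesoderm (adjusted p = 0.0238). Phlda1, an ERK response gene, was at 55.6 ± 23.3 and 215 ± 81.5 CPM (adjusted p = 0.0316). Both calls were lost without any 1 endoderm library or hematopoietic replicate 1, and that of Phlda1 also without YFP-negative replicate 1 (adjusted p up to 0.116 and 0.139). Their adjusted p values were 0.038 and 0.0293 without hematopoietic replicate 3.

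Among 13 tested co-receptors and ligand carriers, Gpc4 passed. It encodes a glypican, a cell-surface heparan sulfate proteoglycan, and measured 310 ± 23.2 CPM in endoderm, 144.5 ± 27.4 CPM in YFP-positive cardiac mesoderm and 7.08 ± 10.6 CPM in hematopoietic mesoderm. Endoderm exceeded hematopoietic mesoderm by 5.30 ± 0.94 (edgeR adjusted p = 0.00783), and YFP-positive cardiac mesoderm exceeded it by 4.33 ± 0.90 (adjusted p = 0.0362). The former held without any 1 library, and the latter held only without YFP-negative replicate 3 or hematopoietic replicates 2 or 3 (adjusted p up to 0.0769 over the leave-one-out fits) and was lost with voom (0.119) or those types alone (0.256). The adjusted p values of Gpc4 without hematopoietic replicate 3 were 0.00547 and 0.0191. Gpc4 passed in no pair with YFP-negative cardiac mesoderm in the fit of all 12 libraries. Among 19 tested genes of heparan sulfate synthesis and editing, only Hspg2 passed, in 1 pair. This gene of the basement membrane proteoglycan perlecan was at 147 ± 26.4 CPM in endoderm and 431 ± 168 CPM in hematopoietic mesoderm (adjusted p = 0.00482, and 0.000255 without hematopoietic replicate 3).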

How the data were processed

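RNA from sorted embryonic cells was purified with a nanoprep kit and amplified with a low-input system, per the labels' protocols. The authors deposited raw counts of reads per gene, 1 table per library. The tools named are STAR 2.5.0a, Picard, HTSeq 0.6.0 and DESeq2 with build mm10, per the submitters' processing notes. Their order, the annotation and the strand setting are not given in the sources used here. The 5 summary categories were left out of library totals, and genes took 18.3% to 21.5% of tallied reads. Reads that fit more than 1 gene or place went uncounted, so near-identical and overlapping genes are undercounted. Symbols came from a gene name table (37607 of 38924 identifiers matched), and coordinates and exon lengths from a GRCm38 annotation.

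The fits used edgeR 4.0.16 (R 4.3.3), with TMM scaling, the default filter (14170 genes) and a quasi-likelihood fit of all 12 libraries with 1 coefficient per type and 8 residual degrees of freedom. Benjamini-Hochberg adjustment ran over all tested genes of each of 6 pairs. Standard errors were derived from the log2 difference and the F statistic. Intervals and floors (3 counts) cover counting error only, since the sources used here mention no molecular identifiers. The alternatives were RLE scaling, no filter, a mean of at least 5 CPM, a replicate block, DESeq2 1.42.0, a fit of the 2 types alone, limma 3.58.1 voom with quality weights, leaving out each library, and, chosen after seeing the data, library totals without TMM. The procedure was tested on simulated data.

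Values are given in full for genes with a mean of at least 10 CPM in a type or an adjusted p under 0.05, and for other pathway genes with an adjusted p under 0.05. The genes and lists were chosen with earlier results of these data known. Promoter sequences are RefSeq windows of GRCm38.p6.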

Additional observations from a re-analysis of the deposited data

How the results depend on the processing

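Over 18 called differences of FGF genes, 248 of 360 refits kept the call, 112 lost it and none reversed. A further 14 differences that were not called were chosen as near the threshold or, between the cardiac types, as having an unadjusted p under 0.05. They do not stand for all differences that were not called. Of 275 refits of these 14, 41 passed and 1 reversed: Fgfr4 between the cardiac types ranged from -1.77 (without YFP-positive replicate 2) to 8.21. The counts of FGF genes moved most with the tool. YFP-positive cardiac mesoderm against endoderm (3) gave 5 with DESeq2, and 7 both with the 2 types alone and with voom. Of these, 2, 4 and 4 were higher in endoderm, as were 561, 727 and 657 of all genes called. YFP-negative cardiac mesoderm against endoderm (2) gave 5, 8 and 12. Higher in endoderm were 1, 5 and 8 of them, and 364, 892 and 1160 of all genes called. YFP-positive cardiac against hematopoietic mesoderm (4) gave 9, 0 and 0. Of the 9, 3 were higher in hematopoietic mesoderm, as were 605 of all genes called. YFP-negative cardiac against hematopoietic mesoderm (1) gave 9 with DESeq2, 0 with the 2 types alone, and 2 both without a filter and at 5 CPM. Higher in hematopoietic mesoderm were 2 with DESeq2, 1 at 5 CPM, and Fgf13, the only gene called with voom. Of all genes, 363, 43 and 76 were called in that direction. Endoderm against hematopoietic mesoderm (8) gave 17 with DESeq2 and 5 without a filter. Over all genes, the shares called by DESeq2, the 2 types alone and voom were 6.46%, 8.28% and 7.97% in the first pair (1.54% in the fit reported), then 4.27%, 10.1% and 12.8% (1.31%), 10.5%, 0.121% and 0.127% (1.79%), 7.43%, 0.0874% and 0.67% (0.593%), and 13.1%, 9.89% and 8.65% (5.65%). Without a filter the last pair had 2.85% and the one before it 0.736%, with 1.2% at 5 CPM.

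In the other pathway genes, the cardiac types (0) gave 1 with DESeq2. In the same order, YFP-positive cardiac mesoderm against endoderm (4) gave 8, 12 and 10, and 7 without a filter. YFP-negative against endoderm (3) gave 6, 13 and 15, and 5 without a filter. YFP-positive against hematopoietic mesoderm (2) gave 14 with DESeq2, 0 with the 2 types alone and 8 without a filter. YFP-negative against hematopoietic mesoderm (0) gave 9 with DESeq2, 4 with voom, 4 without a filter and 1 at 5 CPM. Endoderm against hematopoietic mesoderm (7) gave 18 with DESeq2 and 15 with voom. The cause of these differences was not tested.

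Leaving out 1 library gave 0 to 0 FGF genes between the cardiac types, and 2 to 4, 2 to 3, 1 to 5, 0 to 3 and 2 to 9 in the other pairs in the order above. The other pathway genes ranged over 0 to 0, 2 to 7, 1 to 7, 1 to 11, 0 to 7 and 3 to 12. The shares of all genes called moved too. In the same order they ranged over 0.0% to 0.00655%, 0.473% to 2.65%, 0.46% to 2.14%, 0.695% to 2.79%, 0.105% to 1.62% and 1.2% to 6.41%.

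The titles give the replicate numbers, and same-numbered libraries share a date-like string in their file names, whose meaning is not stated. Same-numbered libraries of different types correlated in their deviations by 0.0141 on average (-0.0169 to 0.0333), and differently numbered ones by -0.00707. The deviations were taken from the mean of each type, which ties the second average to the first. This comparison therefore cannot decide whether the numbers mark a pairing or a batch. The fit reported does not pair the libraries. With the replicate block, YFP-positive cardiac against hematopoietic mesoderm gave 1 FGF gene (0.939% of all genes) and YFP-negative gave 0 (0.219%). YFP-positive cardiac mesoderm against endoderm gave 2 (1.26%), and endoderm against hematopoietic mesoderm gave 6 (3.85%). In that last pair Fgf13, Fgf15, Fgfrl1 and Spry1 were lost and Dusp6 and Fgf5 passed, and over all pairs 9 of 18 calls were lost. Without TMM, the median log2 difference of all genes between endoderm and hematopoietic mesoderm was 0.24 against 0.07. Depth limits genes near 3 counts, where 0.380 to 0.671 CPM is the floor.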
